A study of Rattus norvegicus with 24 samples.

Results

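The comparison described here is JQ1 given alone for 60 min against vehicle (DMSO), in 2 libraries of each group, or 4 of the 23 libraries analysed in the series. The members were taken by their labels: replicates 5 and 6 of the group with JQ1 and DMSO, and replicates 5 and 6 of the group with DMSO alone, all from the first of 3 experiments. All came from primary striatal neurons of newborn rats, which received the compounds on culture day 7. The JQ1 cultures therefore also held the DMSO that takes the place of SKF, an agonist of the D1 dopamine receptor, in the other groups of the experiment. Other groups used below for comparison were SKF with JQ1 against SKF with DMSO at 60 min (experiment 1), iBD2 against DMSO at 60 min (experiment 2) and JQ1 against DMSO at 24 h (experiment 3), with 2 libraries in each group and none shared with the 4 libraries here. The labels give no dose for any agent and do not state whether both libraries of a group are independent cultures. The p-values therefore reflect library-to-library spread alone, and that spread may be technical.

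JQ1 occupies the acetyl-lysine pockets of the BET family of bromodomain proteins of chromatin readers, which bind acetylated histones at promoters and enhancers. The kinase complex P-TEFb acts on RNA polymerase II, where it releases paused polymerase into elongation. P-TEFb is held inactive by the HEXIM proteins on the 7SK RNA. Changes of RNA seen at 60 min reflect mostly short-lived transcripts and the earliest changes in transcription.

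The 4 libraries held 7.23 to 9.95 gigabases aligned, as computed from the deposited coverage and FPKM (fragments per kilobase of transcript, scaled to library size, the unit of every level below). Levels are as deposited, and log2 changes are from limma with their SE, on a log2(FPKM + 0.5) scale that understates the change of low genes. Of 13999 genes tested, 616 passed an adjusted p under 0.05 (4.40%), 261 of them higher (1.86%) and 355 lower (2.54%). The median rise was 0.44 and the median fall −0.40, and 112 rises and 102 falls were at least 0.5 on the log2 scale. The median of all genes was 0.01. In all 616 the JQ1 libraries lay on 1 side of the DMSO libraries, as they did in 37.6% of all genes tested. Leaving out DMSO replicate 6 gave 360 calls. Leaving out JQ1 replicate 5 gave 316, and JQ1 replicate 6 gave 391. Leaving out DMSO replicate 5 gave 617, of which 437 were among the 616, and turned the balance to 316 higher and 301 lower.

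The BET and P-TEFb genes themselves moved little, with 1 exception. Hexim1, the inhibitor of P-TEFb and a single-exon gene (chromosome 10, 91200874 to 91202984, Rnor_6.0), stood at 7.22 and 5.42 FPKM with DMSO and at 15.4 and 14.7 with JQ1. Both JQ1 libraries were above both DMSO libraries, as for every gene called higher, and its log2 change was 1.23 ± 0.09 (adjusted p = 8.5e-08). Of the 18 genes of this list tested, 3 rose and 1 fell, beside 1.86% and 2.54% of all genes. The list median was 0.003 against 0.01 for all genes. Mepce, the methyltransferase that caps 7SK RNA, rose by 0.39 ± 0.08, and Ell, an elongation factor, by 0.34 ± 0.07. Hexim2, the paralog of Hexim1, went the other way, at −0.42 ± 0.11 (adjusted p = 0.043). These 3 smaller calls depended on single libraries. Mepce had an adjusted p of 0.14 without DMSO replicate 6 or JQ1 replicate 5. Ell had 0.054 and 0.062 without DMSO replicates 5 and 6 and 0.15 without JQ1 replicate 5. Leaving out DMSO replicate 5 gave Hexim2 an adjusted p of 0.25, and JQ1 replicates 5 and 6 gave 0.19 and 0.2. It was 0.053 on leaving out either library with SKF and JQ1. Brd3, which encodes a target of the drug (−0.02, adjusted p = 0.89), and the P-TEFb kinase gene Cdk9 (0.01, adjusted p = 0.97) did not pass, and the sign of Cdk9 turned on FPKM as deposited. Brd2 is not analysed here.

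Many loci carry the name 7SK in the annotation, and they did not move as a class. Of 424 such loci 42 were tested. The 8 with more than 1000 FPKM had log2 changes of 0.06 to 0.14, and limma called none of them. The 7SK locus that was called lower (chromosome 14) stood near 1 FPKM, at 0.942 and 1.08 with DMSO and 0.197 and 0.242 with JQ1. On leaving out DMSO replicate 6 its adjusted p became 0.11, as for JQ1 replicate 5, and it was 0.057 for JQ1 replicate 6. Near-identical copies share reads, so values of single 7SK loci are uncertain.

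The largest log2 change among the rises called was that of Sertad1, a regulator of cyclin-dependent kinase 4 and of E2F activity, which stood at 1.31 and 1.73 FPKM with DMSO and 8.34 and 7.93 with JQ1 (535% of DMSO). Txnip, a thioredoxin-binding arrestin-fold protein that restrains glucose uptake, stood at 20.4 and 17.6 FPKM with DMSO and 73.5 and 71.1 with JQ1 (381% of DMSO). Relatives of both were called at smaller sizes. Arrdc2, an arrestin-domain relative of Txnip, rose by 0.49 ± 0.10, and its adjusted p became 0.071 on leaving out DMSO replicate 6, 0.077 for JQ1 replicate 5 and 0.062 for JQ1 replicate 6. Sertad4 fell by 0.28 ± 0.06 on the log2 scale, and its adjusted p became 0.073 and 0.062 on leaving out DMSO replicates 5 and 6 and 0.25 for JQ1 replicate 5.

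**Figure D1:**
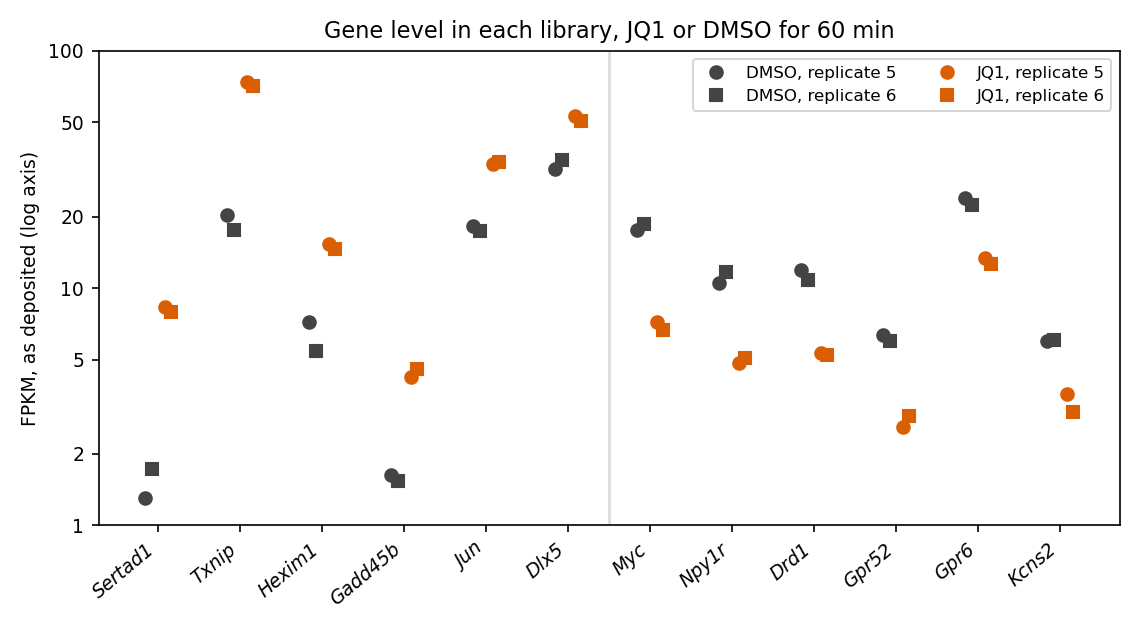
Level of 12 genes in each library, in FPKM as deposited on a log axis; grey marks are the DMSO libraries and orange marks the JQ1 libraries, with circles for replicate 5 and squares for replicate 6. For each of the 6 genes on the left both JQ1 libraries lie above both DMSO libraries, and for each of the 6 on the right below them.

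Myc, the growth-promoting transcription factor whose loss is the best known effect of BET inhibition in tumour cells, stood at 17.5 and 18.6 FPKM with DMSO and 7.19 and 6.68 with JQ1. The JQ1 libraries held 38.4% of the DMSO level. Of 12 genes of the Myc and Max network tested, 2 fell and 1 rose, beside 2.54% and 1.86% of all genes, with a median of 0.02. Mycn, a Myc paralog, was at 6.92 and 5.98 FPKM with DMSO and 4.73 and 4.66 with JQ1 (−0.39 ± 0.07, adjusted p = 0.0034). Mxd1, which encodes a Max partner that opposes Myc, rose by 0.34 ± 0.06, and its adjusted p was 0.059 without JQ1 replicate 5.

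Histone genes made up most of the large rises. Replication-type histone genes are short, mostly without introns, lie in clusters, and give transcripts that normally end in a stem-loop in place of a poly(A) tail; RNA depleted of ribosomal RNA, as here, keeps them. Of 36 such genes tested, 30 were called higher and 0 lower (0 passed an unadjusted p under 0.05 in that direction, and limma voom called 0). All 36 log2 changes were above 0, with a median of 1.17, and 19 of the 37 rises of at least 2-fold were in this list. Summed over the 36, the level was 620.0 and 568.9 FPKM with DMSO and 1164 and 1145 with JQ1, a rise of 94.2%. Without each of the 4 libraries in turn the number called higher was 27 to 30.

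Single histone genes differed in size of response. LOC684762 stood at 24.1 and 24.7 FPKM with DMSO and 90.7 and 84.5 with JQ1 (1.85 ± 0.09, adjusted p = 5.9e-10). H4f3 rose from 5.69 and 5.21 FPKM to 18.9 and 19.1 (1.74 ± 0.11). Hist1h2bq, an H2B gene, rose from 22.6 and 21.4 FPKM to 49.6 and 49.5 and had the smallest adjusted p of the comparison (1.18 ± 0.045, adjusted p = 5.9e-11). Among the more abundant, Hist1h4m rose from 62.5 and 58.7 FPKM to 139 and 128, while Hist2h4a rose from 96.5 and 89.7 to 140.0 and 136.1 (0.60 ± 0.05). The linker histone genes H1f2 (0.80 ± 0.07), H1f4 (0.74 ± 0.10) and H1f5 (0.98 ± 0.10) rose less than the median of the list. The near-identical loci Hist2h4, Hist1h4b and Hist1h2ao had levels equal within 1% in each library and cannot be counted as separate measurements, and other copies may share reads too. The symbols are not a safe guide to the histone class, since the reference table gives other classes to some of them.

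The members not called were H1f10, Hist3h2ba, Hist2h2be, H2ac21, 1 of the loci named Hist1h2an, and H1f6 (0.62, adjusted p = 0.055). Of 10 replacement histone genes, whose transcripts are polyadenylated and made outside S phase too, 2 rose (beside 1.86% of all genes), with a median of 0.14. H1f10 was counted in both lists. H2ax, the variant phosphorylated at DNA breaks, rose from 19.5 and 18.3 FPKM to 33.5 and 32.8 (0.82 ± 0.05). H3f3a, which encodes H3.3, rose from 135.8 and 123.4 FPKM to 191.3 and 210.4 (0.66 ± 0.05). Slbp, which encodes the protein that binds the histone stem-loop and was looked up after its value was seen, rose from 8.90 and 7.26 FPKM to 11.6 and 11.6 (0.53 ± 0.08, adjusted p = 0.00061).

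On chromosome 17, between 43614101 and 44841382 (Rnor_6.0), 49 tested genes form the main histone cluster. Of its 24 listed histone genes 22 were called higher. Another 19 loci there were short and single-exon but carried no histone symbol in the list, and 18 of them were called higher, with a median of 0.97; these were picked out after the values were seen. The 6 remaining genes of the cluster included 1 rise, at a locus named LOC100912564, and 1 fall, of Zfp322a (−0.29 ± 0.07, adjusted p = 0.033, which was 0.11 and 0.14 without DMSO replicates 5 and 6, and 0.066 and 0.28 without JQ1 replicates 5 and 6). The median of these 6 was 0.06. Of the 37 rises of at least 2-fold, 25 lay on chromosome 17, counted over the whole chromosome.

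**Figure D2:**
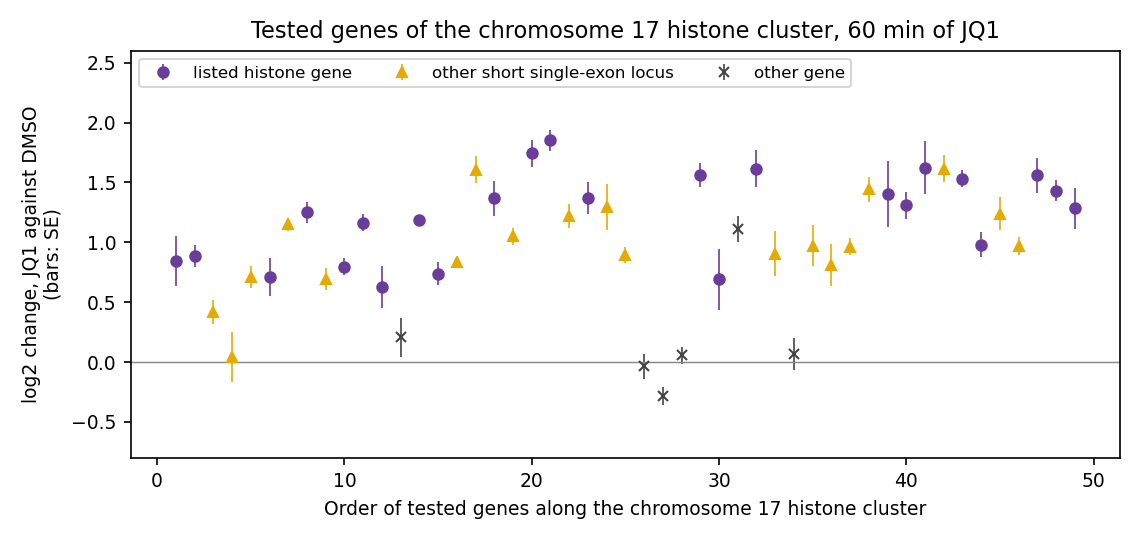
Log2 change with JQ1 (vertical axis, bars are SE) of the 49 tested genes of the chromosome 17 histone cluster, in their order along the chromosome (horizontal axis). Listed histone genes (circles) and other short single-exon loci (triangles) lie above 0, whereas the 6 other genes (crosses) have a median of 0.06.

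Among early response genes, which are transcribed within minutes of a stimulus and have short-lived transcripts, most calls were rises. Of 11 AP-1 genes 3 rose and 2 fell (median 0.17), beside 1.86% and 2.54% of all genes. The falls were Fosl2 (−0.38) and Mafg (−0.20). With experiment 1 fitted alone by limma their adjusted p was 0.1 and 0.14, and limma voom called 1 AP-1 fall. The 3 that rose encode the Jun subunits. Jun stood at 18.3 and 17.4 FPKM with DMSO and 33.2 and 34.1 with JQ1 (0.92 ± 0.05, adjusted p = 5.6e-09). Junb stood at 20.1 and 18.7 with DMSO and 33.5 and 35.4 with JQ1 (0.84 ± 0.14), and Jund at 81.8 and 86.0 with DMSO and 118 and 116 with JQ1 (0.51 ± 0.05). Fos, their usual partner, was at 39.8 and 45.5 FPKM with DMSO and 61.0 and 64.3 with JQ1, and its change of 0.58 ± 0.17 did not pass (adjusted p = 0.09). On leaving out SKF replicate 5 or 6, neither of which is in the comparison, it passed (adjusted p = 0.012 and 0.013).

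Of 33 other immediate early genes 7 rose and 1 fell, with a median of 0.20, or 14 and 3 at an unadjusted p under 0.05. Of all genes 1.86% rose and 2.54% fell. The fall was Nr4a3 (−0.40), whose adjusted p was 0.054 with experiment 1 fitted alone by limma. Gadd45b, a stress sensor linked to DNA demethylation, stood at 1.63 and 1.54 FPKM with DMSO and 4.23 and 4.54 with JQ1 (1.25 ± 0.14, adjusted p = 1.8e-05). Ier2 stood at 5.92 and 5.80 with DMSO and 13.7 and 12.5 with JQ1 (1.12 ± 0.12). Ier5 rose by 0.85 ± 0.11, Errfi1, which restrains the EGF receptor, by 0.89 ± 0.06, and Tiparp, a mono-ADP-ribosyltransferase, by 0.72 ± 0.09. Egr1, a zinc finger factor induced by neuronal activity, stood at 46.3 and 48.8 FPKM with DMSO and 95.8 and 98.4 with JQ1 (1.05 ± 0.24, adjusted p = 0.024). With experiment 1 fitted alone by limma its adjusted p was 0.29. Its adjusted p became 0.12 and 0.097 on leaving out DMSO replicates 5 and 6, and 0.13 for JQ1 replicate 5 or JQ1 replicate 6. Arc, Npas4 and Bdnf, which are also known for neuronal activity, did not pass. Arc, which acts in synaptic plasticity, had 0.22 ± 0.23 (adjusted p = 0.76), Npas4 had 0.64 ± 0.21 (adjusted p = 0.12, but 0.016 and 0.015 on leaving out SKF replicates 5 and 6), and Bdnf had −0.31 ± 0.17 (adjusted p = 0.46).

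Genes of feedback on MAP kinase signalling did not move one way. Of 18 tested, Dusp5, a phosphatase of nuclear ERK, rose from 2.29 and 2.03 FPKM to 3.43 and 3.90 (0.67 ± 0.10, adjusted p = 0.00024). Another 4 phosphatase genes, Dusp4, Dusp7, Dusp10 and Dusp16, were called lower (beside 2.54% of all genes), at −0.52 to −0.24. That count was 0 without DMSO replicate 6 and 1 without JQ1 replicate 5 or JQ1 replicate 6.

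Several receptor genes fell. Of 36 orphan, peptide and aminergic receptor genes of the G protein-coupled class tested, 0 rose, beside 1.86% of all genes (0 at an unadjusted p under 0.05 and 0 by limma voom). The median was −0.16, and 9 fell (25%, beside 2.54% of all genes). Without DMSO replicate 6 or JQ1 replicate 5 the count was 5. Npy1r, a receptor for neuropeptide Y, stood at 10.6 and 11.7 FPKM with DMSO and 4.86 and 5.09 with JQ1. Gpr52, a Gs-coupled orphan receptor of striatal D2 neurons, was at 6.318 and 5.998 FPKM with DMSO and 2.61 and 2.90 with JQ1. Gpr6, another orphan receptor of the D2 neurons, was at 23.9 and 22.4 FPKM with DMSO and 13.4 and 12.6 with JQ1 (−0.78 ± 0.13, adjusted p = 0.0021). In each of these 3 genes no JQ1 library reached the lower DMSO library, as for every gene called lower. Sstr4, a somatostatin receptor gene, fell by 0.72 ± 0.08 on the log2 scale (adjusted p = 1.4e-05).

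Of all genes 2.54% fell and 1.86% rose. Of 19 dopamine signalling genes 1 fell and 0 rose (0 at an unadjusted p under 0.05 and 0 by limma voom). It was Drd1, the D1 receptor gene, at 11.9 and 10.8 FPKM with DMSO and 5.32 and 5.24 with JQ1 (46.4% of DMSO). Drd2 stood at 33.8 and 33.1 FPKM with DMSO and 34.0 and 32.1 with JQ1 (0.01 ± 0.08, adjusted p = 0.97). Drd1 has 1 exon and spans 2236 bases (chromosome 17, 11101306 to 11103541). In bulk RNA, fewer cells of a type and less RNA per cell cannot be told apart. Of the 12 marker genes of striatal projection neurons Drd1 alone was called, and Tac1 and Pdyn, peptide genes of the D1 neurons, did not pass. Tac1 stood at 2.72 and 1.84 FPKM with DMSO and 1.97 and 2.68 with JQ1, and Pdyn at 12.3 and 10.6 with DMSO and 11.9 and 11.3 with JQ1, so the groups overlapped for both.

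Potassium channel genes called were also all lower. Of 66 tested, 7 fell (10.6%, beside 2.54% of all genes), with a median of −0.01. Rises numbered 0 (1 at an unadjusted p under 0.05 and 0 by limma voom), and at the 1.86% of all genes few would be found. Kcna4, which encodes a rapidly inactivating channel, stood at 13.9 and 15.1 FPKM with DMSO and 8.07 and 8.30 with JQ1 (−0.76 ± 0.08, adjusted p = 5.9e-06). Kcns2, which encodes a silent subunit that modifies other channels, stood at 5.98 and 6.06 with DMSO and 3.56 and 3.01 with JQ1. Kcnf1, another modifier subunit gene, fell by 0.60 ± 0.09 on the log2 scale, Kcns3 by 0.71 ± 0.12, and Kcnj11, the pore of the ATP-sensitive channel, by 0.66 ± 0.08. Limma called none of 31 sodium and calcium channel genes (2 passed an unadjusted p under 0.05, and voom called 0). It also called none of 23 glutamate receptor genes (0 and 0) and of 17 GABA genes (0 and 0). At the 4.40% of all genes called, lists of this size would hold few calls or none. Whether the lists differ from each other was not tested. Slitrk3 and Slitrk6, which encode synaptic and neurite adhesion proteins and were named after their values were seen, fell as well. Slitrk3 was at 18.9 and 19.5 FPKM with DMSO and 11.5 and 11.5 with JQ1 (−0.69 ± 0.07, adjusted p = 9.3e-06), and Slitrk6 was below 1 FPKM in all 4 libraries.

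**Figure D3:**
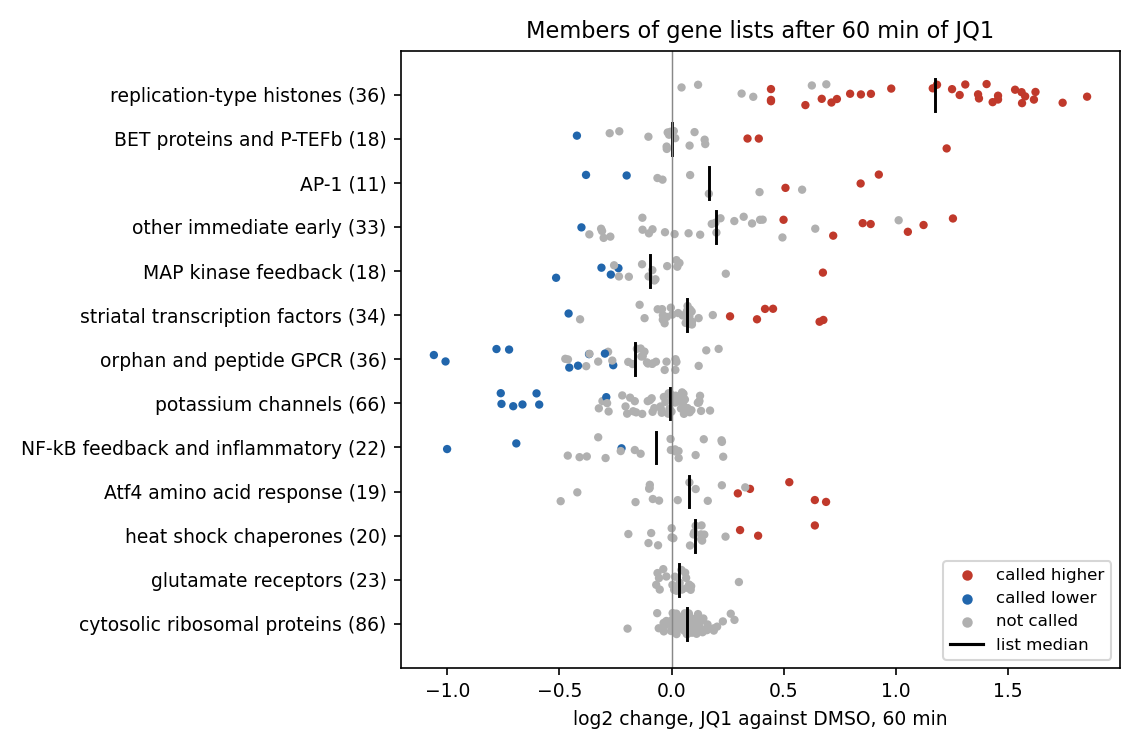
Log2 change with JQ1 at 60 min (horizontal axis) of every tested member of 13 gene lists, with the number tested in brackets; red marks were called higher, blue marks called lower, grey marks were not called, and black bars are list medians. The histone list has its median at 1.17, the calls among receptor and potassium channel genes are all lower, and the glutamate receptor and ribosomal protein lists have no call.

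Of the transcription factors of the striatal lineage that were called, most were higher. Of 34 tested, 6 rose and 1 fell, beside 1.86% and 2.54% of all genes, with a median of 0.07. Of these, 3 were Dlx genes, homeobox factors of developing forebrain GABA neurons. Dlx5 stood at 31.7 and 34.5 FPKM with DMSO and 53.3 and 50.8 with JQ1 (0.68 ± 0.06, adjusted p = 5.7e-07), Dlx2 rose by 0.66 ± 0.08 and Dlx6 by 0.38 ± 0.06. Zfp503, a zinc finger factor of striatal development, rose by 0.45 ± 0.07. Sp9 and Pou3f1 also rose, at 0.26 and 0.42. The adjusted p of Sp9 became 0.072 on leaving out DMSO replicate 6 and 0.088 for JQ1 replicate 5. That of Pou3f1 became 0.056 on leaving out DMSO replicate 5 and 0.087 for JQ1 replicate 5. The Sp family factor Sp1, a general activator that binds GC boxes, fell from 6.61 and 7.02 FPKM to 3.54 and 3.98 (−0.76 ± 0.08, adjusted p = 1.3e-05).

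In the lists of inflammatory genes and of secreted ligands the genes called were all lower, though most members did not pass. Ptgs2, the inducible cyclooxygenase, was at 0.788 and 0.969 FPKM with DMSO and 0.192 and 0.173 with JQ1 (20.8% of DMSO). Tnfaip3, which switches NF-kB off, was at 1.81 and 1.87 with DMSO and 0.913 and 0.944 with JQ1. Inhba, the activin A subunit, was at 1.36 and 1.59 with DMSO and 0.510 and 0.518 with JQ1. Has2, which makes hyaluronan and was named by size, was at 1.23 and 1.29 with DMSO and 0.411 and 0.492 with JQ1. Adamts1, a matrix protease counted in another list, fell by 0.84 ± 0.11 on the log2 scale. In the list of NF-kB and inflammatory genes 3 of 22 fell and 0 rose (0 at an unadjusted p under 0.05 and 0 by limma voom). Beside Ptgs2 and Tnfaip3 the third fall was Rela (−0.22, adjusted p = 0.042). Its adjusted p by limma was 0.07 with the replicate number as a block and 0.11 with experiment 1 fitted alone. In the list of growth factors and secreted ligands 2 of 30 fell and 0 rose (0 and 0). Of all genes 2.54% fell and 1.86% rose. The medians of these lists were −0.07 and −0.115.

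Genes of the Cxcl12 system were looked at together after their values were seen. Ackr3, a scavenging receptor for Cxcl12, was at 4.25 and 4.14 FPKM with DMSO and 2.52 and 1.98 with JQ1 (−0.75 ± 0.13, adjusted p = 0.0012). The chemokine gene Cxcl12 itself had −0.57 ± 0.13 (adjusted p = 0.017) and the signalling receptor gene Cxcr4 −0.55 ± 0.14 (adjusted p = 0.024). Their calls rested on single libraries. Cxcl12 had an adjusted p of 0.15 without DMSO replicate 6 and 0.11 without JQ1 replicate 5 or JQ1 replicate 6. Cxcr4 had 0.094 and 0.12 without DMSO replicates 5 and 6, and 0.21 and 0.079 without JQ1 replicates 5 and 6.

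Some stress and growth-arrest genes rose, while most members of their lists did not pass. Of all genes tested 1.86% rose and 2.54% fell. Of 19 Atf4 amino acid response genes 5 rose and 0 fell (3 had a lower value with an unadjusted p under 0.05, and limma voom called 0), with a median of 0.08; the rises numbered 3 without DMSO replicate 6 or JQ1 replicate 5. Sesn2, a leucine sensor, stood at 9.61 and 10.5 FPKM with DMSO and 16.01 and 15.2 with JQ1, and Atf4 itself rose by 0.29 ± 0.05. Of 20 heat shock chaperone genes 3 rose, Hspa1b, Hspa5 and Dnajb1, at 0.64, 0.39 and 0.30. Tob1 and Tob2, which encode antiproliferative proteins of the deadenylation machinery, rose by 0.68 ± 0.06 and 0.47 ± 0.07. They were among 4 rises of 16 genes of cell cycle arrest, a count that was 2 without DMSO replicate 5 or JQ1 replicate 5. In the same list Bcl6, a transcriptional repressor, fell by 0.275 ± 0.063 on the log2 scale (adjusted p = 0.015), with an adjusted p of 0.26 on leaving out DMSO replicate 6 and 0.058 and 0.14 for JQ1 replicates 5 and 6. Of 24 cell cycle and replication genes 2 rose, Ccnd3 (0.43 ± 0.08) and Pcna (0.32 ± 0.05).

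Several regulators of chromatin and transcription outside the lists were among the rises and were named after their values were seen. Sap30, a subunit of the Sin3 histone deacetylase complex, stood at 1.99 and 2.26 FPKM with DMSO and 4.92 and 4.41 with JQ1 (1.0 ± 0.16, adjusted p = 0.00082). Cbx2, a chromobox protein of Polycomb complex 1, was at 1.36 and 1.63 with DMSO and 3.32 and 3.04 with JQ1, and Cbx8, another, rose by 0.59 ± 0.11. Taf5, a subunit of the initiation factor TFIID, rose by 0.76 ± 0.09. The kinase gene Pim1 stood at 1.71 and 1.38 FPKM with DMSO and 4.09 and 3.64 with JQ1 (1.12 ± 0.15, adjusted p = 9e-05), and Mylip, a ubiquitin ligase of the LDL receptor, at 3.18 and 2.90 with DMSO and 5.95 and 6.24 with JQ1. Of 47 RNA polymerase II and Mediator genes 3 rose and 2 fell (median 0.002), beside 1.86% and 2.54% of all genes. Med26, the Mediator subunit that contacts elongation factors, was highest at 0.62 ± 0.07.

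Zinc finger genes formed the largest group among the falls. Counting the symbols that begin with Zfp, Znf, Zbtb, Zscan or Zkscan, a group chosen after the values were seen, 310 were tested, and 62 were called lower (20%, beside 2.54% of all genes) and 6 higher (10 without DMSO replicate 5). They made up 17.5% of all falls. Their median was −0.13, and 77.7% lay below 0, as did 46.4% of all genes. The falls numbered 38 without DMSO replicate 6 and 37 without JQ1 replicate 5. Zfp518a stood at 2.98 and 2.94 FPKM with DMSO and 1.33 and 1.497 with JQ1 (−0.83 ± 0.10, adjusted p = 2.3e-05), Zfp563 at 4.07 and 3.97 with DMSO and 2.19 and 1.90 with JQ1, and Zbtb26 at 4.12 and 3.84 with DMSO and 2.17 and 2.29 with JQ1. In all 3 the JQ1 libraries held about the same level as each other. They lay below both DMSO libraries, as for every gene called lower. Of the 62 genes, 22 lay on chromosome 1, where 72 of the group were tested. Most of these genes encode DNA-binding repressors or factors whose targets are not known.

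Apart from Drd1, no gene of the housekeeping lists below or of the cell type marker lists was called. Limma called none of 86 cytosolic ribosomal protein genes (6 higher and 0 lower at an unadjusted p under 0.05). The same held for 80 nuclear genes of the respiratory chain (5 and 0) and 19 clock genes (1 and 2), and voom called none either. Of all genes tested 4.40% were called. The cultures carried the markers of neurons at high level, with 6 pan-neuron genes summing to 1959 and 1912 FPKM with DMSO and 1964 and 1957 with JQ1. The 14 microglia markers summed to 126.5 and 107.1 FPKM with DMSO and 110.2 and 115.7 with JQ1. The 11 astrocyte markers summed to 425.7 and 446.5 with DMSO and 401.9 and 420.4 with JQ1. The 8 endothelial markers found in the files summed to 0.45 to 0.66 FPKM, and none was tested. None of the marker genes of neurons in general, astrocytes, oligodendrocyte lineage, microglia, interneurons or fibroblasts was called, by limma or voom.

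The genes called had short genomic spans. The median span was 4.89 kb for the rises and 10.9 kb for the falls, against 19.6 kb for all genes tested. Without the listed histone genes and the other short single-exon loci the median of the rises was 8.76 kb. Of the genes under 2 kb, 5.26% were called higher and 1.90% lower, and of those over 100 kb, 0.0566% and 0.453%, that is 1 and 8 of 1767. Genes with 1 exon made up 29.1% of the rises, 12.1% of the falls and 8.32% of all genes tested. Span goes with the level and annotation of a gene, and its part in these counts was not tested.

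**Figure D4:**
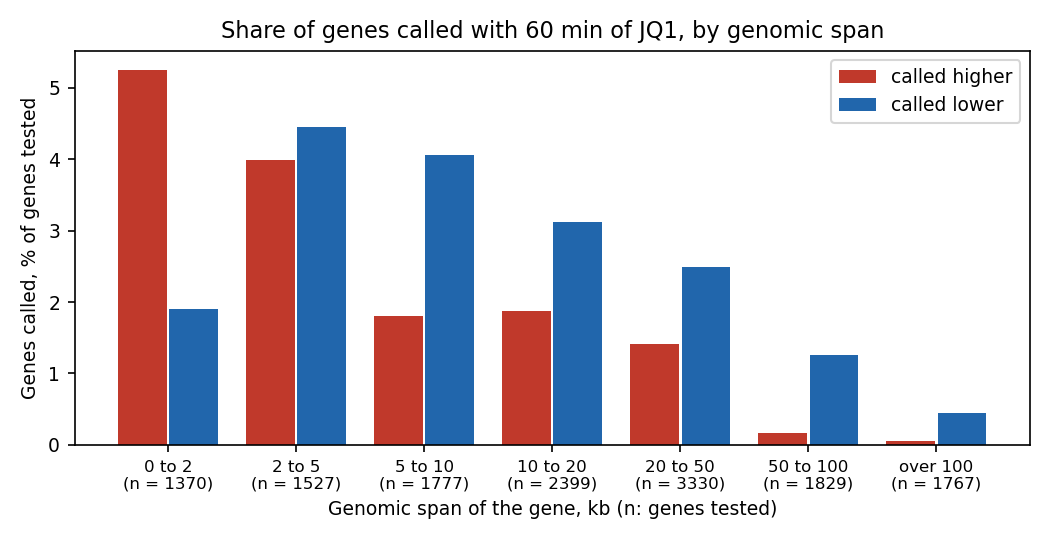
Share of genes called higher (red) and lower (blue) with JQ1 at 60 min, in percent of the genes tested (vertical axis), by the genomic span of the gene in kb (horizontal axis, number tested in brackets). The share called higher runs from 5.26% of genes under 2 kb to 0.0566% of genes over 100 kb; the share called lower is highest at 2 to 5 kb (4.45%).

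The promoters of some genes that moved are given here because short sequence motifs near the start site differed in frequency between rises and falls. Each runs from 250 bases before to 50 after the start of the gene in RefSeq (build GRCr8), 5′ to 3′ on the gene's strand, and capitals mark matches on either strand. The motifs shown by capitals are the GC box, spelled GGGCGG, the CCAAT box, spelled as its name, and the palindromic cyclic AMP response element (CRE), spelled TGACGTCA. They are Sertad1 at chr1:91903047-91903346 (plus strand), Hexim1 at chr10:88562639-88562938 (plus strand) and Hist1h2bq at chr17:41869292-41869591 (minus strand), all higher with JQ1, and Npy1r at chr16:27813338-27813637 (minus strand) and Gpr6 at chr20:46075202-46075501 (minus strand), both lower.
Sertad1: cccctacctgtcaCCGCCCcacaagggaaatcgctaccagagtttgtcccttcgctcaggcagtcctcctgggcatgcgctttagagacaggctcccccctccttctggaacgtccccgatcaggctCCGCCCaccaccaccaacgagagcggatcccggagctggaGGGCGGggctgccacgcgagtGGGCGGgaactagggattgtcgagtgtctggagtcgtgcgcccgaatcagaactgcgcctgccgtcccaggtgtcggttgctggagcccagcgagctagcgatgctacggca
Hexim1: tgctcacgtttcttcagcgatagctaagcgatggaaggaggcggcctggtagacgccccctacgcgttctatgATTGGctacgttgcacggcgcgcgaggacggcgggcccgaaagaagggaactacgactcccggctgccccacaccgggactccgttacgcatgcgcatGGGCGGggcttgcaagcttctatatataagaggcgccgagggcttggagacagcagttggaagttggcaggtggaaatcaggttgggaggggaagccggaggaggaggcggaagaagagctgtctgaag
Hist1h2bq: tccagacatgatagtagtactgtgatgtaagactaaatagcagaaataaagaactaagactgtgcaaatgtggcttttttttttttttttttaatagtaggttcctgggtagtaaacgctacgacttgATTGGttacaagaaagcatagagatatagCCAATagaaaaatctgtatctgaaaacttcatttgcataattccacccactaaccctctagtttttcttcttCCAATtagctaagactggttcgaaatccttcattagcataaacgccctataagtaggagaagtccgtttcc
Npy1r: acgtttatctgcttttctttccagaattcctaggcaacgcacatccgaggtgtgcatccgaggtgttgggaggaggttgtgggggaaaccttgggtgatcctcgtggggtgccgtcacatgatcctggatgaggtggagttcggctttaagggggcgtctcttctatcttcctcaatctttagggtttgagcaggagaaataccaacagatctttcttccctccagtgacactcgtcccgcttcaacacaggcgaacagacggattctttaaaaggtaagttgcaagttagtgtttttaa
Gpr6: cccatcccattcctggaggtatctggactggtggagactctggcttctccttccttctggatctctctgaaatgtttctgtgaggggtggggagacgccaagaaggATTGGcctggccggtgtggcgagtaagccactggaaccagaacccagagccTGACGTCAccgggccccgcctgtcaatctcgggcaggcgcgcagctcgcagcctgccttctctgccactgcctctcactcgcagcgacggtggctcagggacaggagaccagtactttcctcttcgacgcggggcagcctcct

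Sertad1 holds 4 GC boxes, Hexim1 a CCAAT box and a GC box, Hist1h2bq 3 CCAAT boxes, Gpr6 a CCAAT box and a CRE, and Npy1r none of the motifs searched. The search also took in the TATA box, spelled TATAAA. It further took in the E-box, spelled CACGTG, and the AP-1 site, spelled TGACTCA. An NF-kB site was searched too and is given by name alone. Of the genes called, 171 rises and 238 falls matched 1 promoter by symbol, as did 9133 of all genes tested. A CCAAT box was in 63.7% of the rises, 39.9% of the falls and 37.6% of all tested, and in 37.5% of the 33469 promoters of the table. TATA was in 21.6%, 7.14% and 6.43%, and in 14.2% of the table. Without the listed histone genes, 152 rises had CCAAT in 61.2% and TATA in 16.4%. The GC box was in 70.8% of the rises, 54.6% of the falls and 64.0% of all tested, and in 33.1% of the table. The CRE was in 7.02%, 4.202% and 3.26%, and in 1.83% of the table. E-box and AP-1 matches were in 8.19% and 2.34% of the rises and in 6.72% and 4.202% of the falls (9.66% and 2.95% of all tested; 6.42% and 4.63% of the table). NF-kB matches were in 1.17% of the rises, 2.52% of the falls, 1.65% of all tested and 1.53% of the table. These are counts of letters, not of bound sites.

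The next question was whether the response depends on D1 receptor stimulation. With SKF present, 2.74% of all genes rose with JQ1 and 3.81% fell. Of the 261 rises with JQ1 alone, 256 had the same sign with SKF and 210 were called in that direction. Of the 355 falls, 350 had the same sign and 256 were called. No library is shared between these comparisons. The difference of the JQ1 effects was called for 1 of 13999 genes (0.00714%; 459 at an unadjusted p under 0.05; 1 by limma voom), and for 0 of the 616. That gene was Sik1, a salt-inducible kinase of the CREB pathway, with −0.09 ± 0.05 for JQ1 alone and −0.58 with SKF (adjusted p of the difference = 0.047), and of the omissions of 1 library of experiment 1 the call was kept only without SKF replicate 5. It was lost without each of the other 7 libraries, where 0 genes, or 1 other gene (without DMSO replicate 5 or SKF replicate 6), were called. For Drd1 the JQ1 effect was −1.01 without and −1.55 with SKF. The difference of −0.54 had a 95% interval of −0.82 to −0.26 that leaves out 0, though its adjusted p was 0.95 over all genes. For Hexim1 the interval of the difference was −0.01 to 0.52, for Myc −0.32 to 0.17 and for Jun −0.04 to 0.27.

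The inhibitor named iBD2 gave fewer calls at the same time. With iBD2 0.171% of all genes rose and 0% fell. At an unadjusted p under 0.05, 491 were higher and 432 lower, and limma voom called 3 higher and 1 lower. Of the 261 rises with JQ1, 208 had the same sign with iBD2 and 20 were called. Of the 36 listed histone genes 10 were called higher with iBD2, and the 3 near-identical loci named above were among these 10. Of the 355 falls, 273 had the same sign and 0 were called (71 passed an unadjusted p under 0.05, and voom called 0). Hexim1 rose with iBD2 by 0.52 (adjusted p = 0.023) and Hist1h2bq by 0.37 (adjusted p = 0.0012), while Txnip (0.29, adjusted p = 0.75), Myc (−0.30, adjusted p = 0.34) and Drd1 (−0.20, adjusted p = 0.76) did not pass.

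The difference between the JQ1 and iBD2 effects was called for 127 genes (0.907%), 75 with the higher value for JQ1 and 52 with the lower. Among the rises 74 had a larger effect with JQ1, and among the falls 51 a more negative one; picking genes by their JQ1 effect favours this direction. The difference was 1.65 ± 0.19 for Txnip (adjusted p = 0.00025), 0.81 ± 0.06 for Hist1h2bq (adjusted p = 6.2e-06), 0.71 ± 0.13 for Hexim1 (adjusted p = 0.0078), −0.99 ± 0.12 for Myc (adjusted p = 0.00016), and −0.81 ± 0.13 for Drd1 (adjusted p = 0.0042). Leaving out DMSO replicate 6 gave 76, either JQ1 library 65, and replicate 1 of the DMSO group of experiment 2 gave 82. Doses are not given, the iBD2 libraries were shallower (4.36 and 4.71 gigabases), and inhibitor and experiment cannot be told apart.

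After 24 h of JQ1, 28.1% of all genes were higher and 28.6% lower, and most early changes were still seen in the same direction. Of the 261 rises 249 had the same sign at 24 h and 224 were called in that direction; of the 355 falls the numbers were 273 and 196. Hexim1 had 1.47 at 24 h, Txnip 1.72, Npy1r −1.25 and Drd1 −1.07. The difference between times was called for 5124 genes (36.6%), 100 of the rises and 169 of the falls among them. Of those 100 rises 42 were smaller at 24 h, and of those 169 falls 127 were weaker or turned. Myc went from −1.29 at 60 min to −0.38 (difference 0.91 ± 0.12, adjusted p = 1.5e-05), and Kcna4 from −0.76 to 0.08 (difference 0.84 ± 0.11, adjusted p = 2e-05). Mylip went from 0.93 to 0.05 (difference −0.87, adjusted p = 3.5e-06). Genes picked as called at 60 min tend to look smaller in any other comparison, and time and experiment cannot be told apart.

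Some genes were called in opposite directions at the 2 times, 25 lower then higher and 6 higher then lower. Jcad, a junction protein gene, had −0.62 ± 0.10 at 60 min and 0.44 at 24 h, Fam181a −0.69 ± 0.09 and 0.27, and Cited2, which competes for the coactivators CBP and p300, −0.37 ± 0.06 and 0.19. Nr4a3, an orphan nuclear receptor of the early response, stood at 28.1 and 28.6 FPKM with DMSO and 20.7 and 21.1 with JQ1 at 60 min (−0.40 ± 0.10, adjusted p = 0.032), and had 1.45 at 24 h. Its early adjusted p became 0.06 and 0.24 on leaving out DMSO replicates 5 and 6, and 0.21 and 0.12 for JQ1 replicates 5 and 6. In the other direction Srsf3, a splicing factor gene, went from 0.24 ± 0.05 to −0.25, with an early adjusted p of 0.051 without DMSO replicate 5, and the 3 near-identical histone loci named above from 0.44 to −0.40. Zinc finger genes, with a median of −0.13 at 60 min, had a median of −0.004 at 24 h, 69 called higher and 77 lower.

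**Figure D5:**
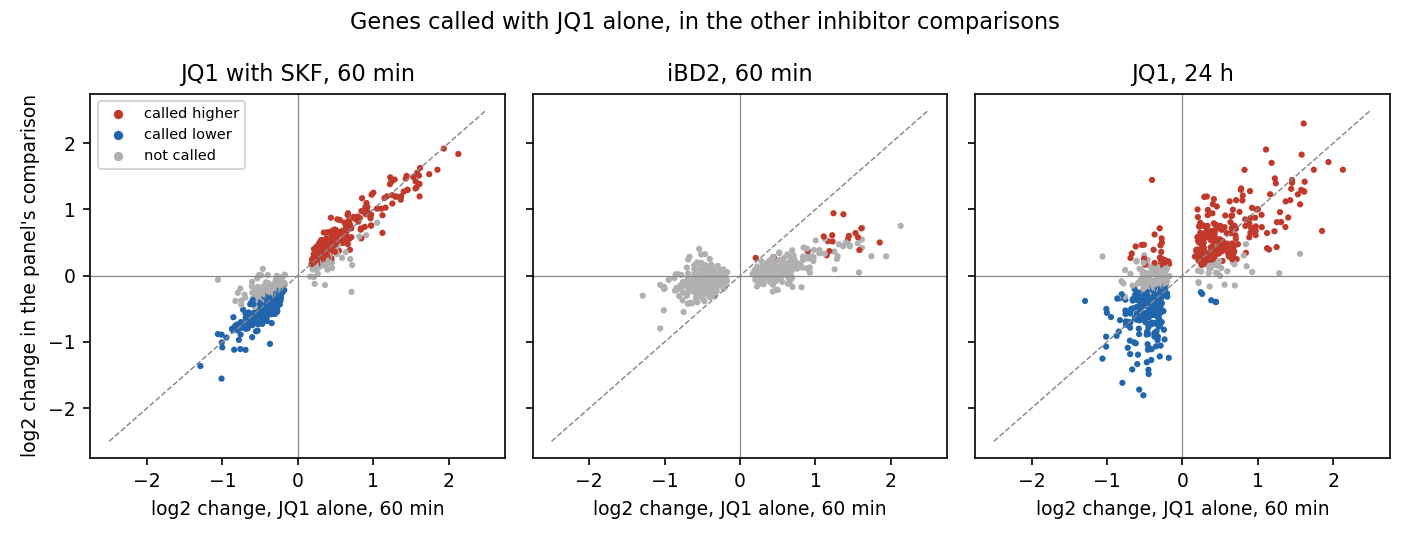
Each point is 1 of the 616 genes called with JQ1 alone at 60 min, with that log2 change on the horizontal axis and its log2 change with JQ1 in the presence of SKF, with iBD2, or with JQ1 for 24 h on the vertical axis; colours show the calls in the panel's own comparison and the dashed line marks equal change. Of the 616, 466 were called in the same direction with SKF present, 20 with iBD2 and 420 at 24 h.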

How the data were processed

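The members and the gene lists were chosen with earlier results of these data known. The submitters' processing notes name STAR and StringTie, Trim Galore and FastQC, the build Rnor_6.0, and DESeq2. The use of strand in counting is not stated by them, which leaves antisense and overlapping genes uncertain. The deposited tables give FPKM per transcript and coverage (mean reads per base, a signal), both computed by the authors with StringTie, per the file headers and labels. Libraries were stranded and depleted of ribosomal RNA, per the labels' protocols.

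FPKM were summed by gene, divided by a median-ratio size factor (0.978 to 1.035 in the 4 libraries) and taken as log2(FPKM + 0.5). Genes needed 0.5 FPKM in at least 2 libraries and a transcript of at least 200 nucleotides. limma 3.58.1 (R 4.3.3, trend and robust, 11 residual degrees of freedom) was fitted to 12 group means over 23 libraries, so that groups of 2 share a spread; a group with 1 library (SKF plus iBD2) borrows that spread. Tests were two-sided with Benjamini-Hochberg adjustment over 13999 genes. The procedure was tested on simulated data. Named genes are the 25 largest rises and 25 largest falls called with a symbol, a mean of at least 1 FPKM and no overlap of libraries, list members called or among the 4 uncalled with smallest p, and a fixed few; others are marked as named after their values were seen. The fits were repeated with pseudocounts of 0.1 and 1, without the filter, on FPKM as deposited, with the replicate number as a block, limma voom on reads from coverage (101-base reads), experiment 1 fitted alone, and each library left out. The main fit did not pair libraries by replicate number. Results for 1 gene are not reported here.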

Additional observations from a re-analysis of the deposited data

Results flagged for a closer look

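The JQ1 effect differed between 24 h and 60 min for 5124 of 13999 genes (limma, adjusted p of the difference under 0.05), each effect taken against the vehicle libraries of that experiment. Of the genes called at 60 min, 25 were lower at 60 min and higher at 24 h, and 6 were higher at 60 min and lower at 24 h. Among the 25 were Jcad, Fam181a, Cited2 and Nr4a3, and among the 6 Srsf3 and the near-identical histone loci Hist2h4, Hist1h4b and Hist1h2ao. The JQ1 effect differed with SKF for 1 gene, Sik1, a call that of the omissions of 1 library was kept only without SKF replicate 5, and that was lost without each of the other 7 libraries of experiment 1.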

How the results depend on the processing

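Of the 50 genes named by size, 46 kept their call and direction in all 15 alternatives; Hist1h2bl, Plau, LOC501406 and the chromosome 14 locus of 7SK lost the call in at least 1 omission of a library. Of all 168 named or listed genes called, 110 kept the call in every alternative and 58 lost it in at least 1. The 616 genes called became 383 with experiment 1 fitted alone and 316 to 644 with 1 library left out. On FPKM as deposited 204 were higher and 423 lower. The 1 difference with SKF became 0 with a pseudocount of 0.1, 0 with experiment 1 alone, 7 without the filter on low values and 0 to 3 with 1 library left out. The 127 differences from iBD2 became 65 to 121 with 1 library left out. The same-direction calls became 277 to 430 for JQ1 with SKF and 225 to 440 for JQ1 at 24 h with 1 library left out. Those shared with iBD2 (20) became 7 on FPKM as deposited, 8 without the filter on low values and 3 with limma voom. Cdk9 turned to −0.0198 on FPKM as deposited. The cause was not tested.

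With the replicate number as a block 644 genes were called with JQ1 alone, 581 of them among the 616, and 0 for the difference with SKF. The block also brought the adjusted p of Fos to 0.0079 and that of Npas4 to 0.0055. The deviations of same-numbered DMSO and JQ1 libraries correlated at −0.27 across genes. With only 2 pairs, that value cannot show whether the number marks a shared culture or batch.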
